A study of Mus musculus with 2 samples.

Results

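MicroRNA genes that mark blood vessels and red blood cells were followed in tissue labelled as a layer of hippocampus from 10-day-old mice. The members are 6 of the 2202 microRNA genes counted, taken by name, with earlier results of these data known. The list holds Mir126a of endothelium, Mir143 and Mir145a of the mural cells around vessels, and Mir144, Mir451a and Mir486 of red cells, as a measure of blood in the tissue. The tissue came from female B6CASTF1/J mice, first-generation hybrids of C57BL/6J and CAST, without treatment or engineered allele in the labels. Each library's label lists its own 3 females, and the 2 libraries are biological replicates of 1 group, so no conditions were compared. RNA below 30 nt was sequenced as microRNA-seq. The 2 sets carry 1 shared donor entry, and the spread between libraries does not separate animals, dissection and library preparation.

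A microRNA is cut from a hairpin and loaded into an Argonaute protein, where its seed, bases 2 to 8 from the 5′ end, pairs with messenger RNAs. Mir126a is made in endothelial cells from the gene of the vessel factor Egfl7, and its products sustain growth factor signalling and restrain Spred1 and the adhesion molecule Vcam1. Mir143 and Mir145a are made together in smooth muscle cells and pericytes, where they promote the contractile state. Mir144 and Mir451a are made from a shared transcript under the erythroid factor Gata1, Mir451a is cut by Ago2 without Dicer, and Mir486 accumulates during red cell maturation from the gene of the membrane skeleton protein ankyrin 1.

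The mature forms are shown first because the counts below depend on where they lie and on what is annotated opposite to them. RefSeq sequences (GRCm38.p6) were found for 3 of the 6 genes, and Mir143, Mir145a and Mir486 are named only. Capitals mark the seed, and forms of the genes annotated opposite to Mir126a and Mir451a follow those of the members.
miR-126a-3p: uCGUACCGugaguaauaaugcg
miR-451a: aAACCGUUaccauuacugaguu
miR-144-5p: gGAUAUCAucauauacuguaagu
miR-144-3p: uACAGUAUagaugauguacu
miR-126b-5p: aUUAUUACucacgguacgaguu
miR-126b-3p: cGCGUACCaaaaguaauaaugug
miR-451b: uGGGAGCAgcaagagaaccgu
The 4 forms of the members have 4 different seeds, and none of the other mature microRNAs among the 1738 in the table has any of them. MiR-126a-3p occupies bases 46 to 67 of its 73-nt hairpin. MiR-451a occupies bases 17 to 38 of a 72-nt hairpin, so it runs past the middle of the hairpin at base 36. Both arms of Mir144 are listed. For Mir126a only the 3p form is listed, so the seed of its other arm was not compared. A gene count does not tell the arms apart, so each level below is that of a gene.

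The genes lie at 4 loci of GRCm38 (mm10, GENCODE M21). Mir126a (ENSMUSG00000065540.1, chromosome 2, 26591357 to 26591429, plus strand) falls in an intron of 8 of the 9 Egfl7 transcripts that span it and in an exon of the other one. Mir143 (ENSMUSG00000065445.3, chromosome 18, 61649196 to 61649258) and Mir145a (ENSMUSG00000065592.2, chromosome 18, 61647825 to 61647894) lie 1301 nt apart on the minus strand, outside any other annotated gene. Mir144 (ENSMUSG00000065401.1, chromosome 11, 78073005 to 78073070) and Mir451a (ENSMUSG00000070065.1, chromosome 11, 78073170 to 78073241) lie 99 nt apart on the plus strand, also outside any host gene. Mir486 (ENSMUSG00000070084.3, chromosome 8, 23142555 to 23142682, plus strand) lies in an intron of all 15 Ank1 transcripts that span it. The single transcript of Gm15816, on the opposite strand, also has it in an intron.

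Replicate 1 held 5479267 sense counts on microRNA genes and replicate 2 held 3563226. Levels are in counts per 1000000 of these (CPM). A microRNA read is about as long as the mature form, so counts were not divided by gene length. Adapter ligation differs between sequences and no spike-in was used here, so the order of genes is an order of reads. Bulk tissue was used, so fewer cells of a type and less RNA per cell cannot be told apart. Reads with more than one genomic match, 43.2% of the total in replicate 1 and 39.3% in replicate 2, were not assigned to a gene.

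All 6 genes reached 10 counts in both libraries, the minimum used to call a gene detected, as did 19.5% of all genes. Assigned reads of the vessel wall genes far outnumbered those of the red cell genes. Mir486 shares a 22-nt stretch with the gene opposite to it, and reads inside that stretch are not assigned, so its counts and the red cell sums below are lower bounds. Mir126a, Mir143 and Mir145a together held 1.18% of the counts in replicate 1 (exact Clopper-Pearson 95% interval 1.17% to 1.18%) and 1.11% in replicate 2 (1.10% to 1.12%). Mir144, Mir451a and Mir486 together held 0.00555% in replicate 1 (0.00494% to 0.00621%) and 0.00643% in replicate 2 (0.00562% to 0.00732%). The ratio of vessel wall to red cell counts was 212 in replicate 1 and 173 in replicate 2, or 193 ± 27.3 (SD, n = 2). This describes assigned reads and is an upper bound where reads of Mir486 were lost. Against Mir144 and Mir451a alone, an alternative chosen after seeing the data, the ratio was 343 in replicate 1 (95% interval 297 to 397) and 286 in replicate 2 (242 to 340), or 314 ± 40.4 (SD, n = 2).

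Mir126a, the endothelial gene, had 8303 CPM in replicate 1 against 7986 CPM in replicate 2, or 8144 ± 224 CPM (SD, n = 2), from 45493 and 28455 counts. It ranked 25 and 26 among all genes in the 2 libraries. Its neighbours in the order of mean levels were Mir100 at 8359 ± 468 CPM and the neuronal activity gene Mir132 at 8030 ± 685 CPM. These 3 levels could not be ordered, since their differences were smaller than the spread between libraries. Mir126a alone supplied 70.6% and 71.7% of the vessel wall counts.

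The mural pair was read at unequal levels. Mir143 had 3221 CPM in replicate 1 against 2943 CPM in replicate 2, or 3082 ± 196 CPM (SD, n = 2), with Mir328 at 3094 ± 337 CPM and Mir181c at 3075 ± 182 CPM next to it in the order. Mir145a had 232 CPM in replicate 1 against 209 CPM in replicate 2, or 220 ± 16.7 CPM, between Mir30c-2 at 224 ± 25.1 CPM and Mir325 at 208 ± 4.64 CPM. Both libraries gave the same wide gap between the pair. The ratio of Mir143 to Mir145a counts was 13.9 in replicate 1 (95% interval 13.1 to 14.7) and 14.1 in replicate 2 (13.1 to 15.2), or 14.0 ± 0.171 (SD, n = 2), so the libraries differed in it by less than counting error. Mir145a shares a stretch of 17 nt with Mir145b, a gene with 0 sense counts in both libraries, and no stretch of 12 nt or more of Mir143 was found in another microRNA gene. The ratio of Mir126a to Mir143 counts was 2.58 in replicate 1 (2.53 to 2.62) and 2.71 in replicate 2 (2.65 to 2.77), intervals that do not overlap.

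**Figure D1:**
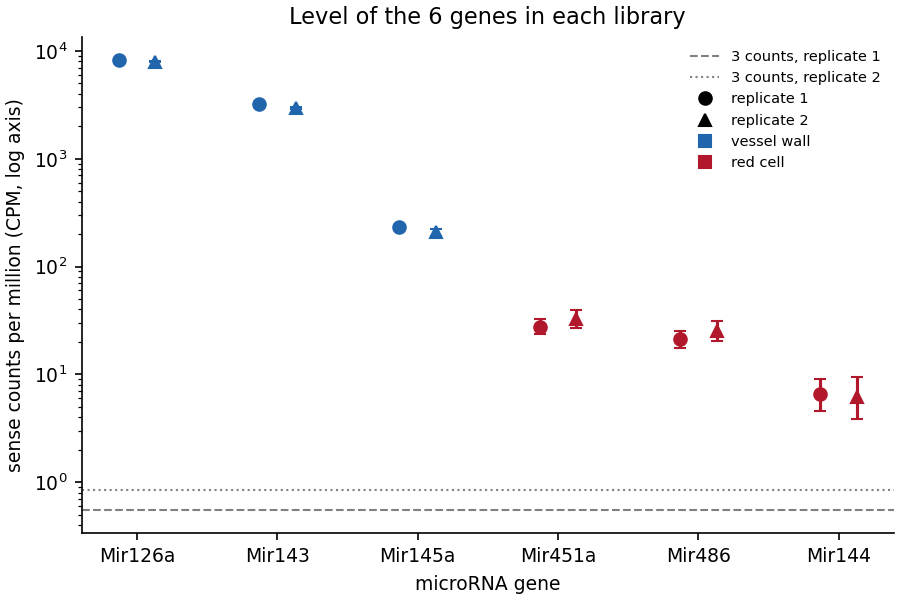
CPM on the sense strand (log axis) of the 6 genes in replicate 1 (circles) and replicate 2 (triangles), with exact 95% Clopper-Pearson intervals for counting error, vessel wall genes in blue and red cell genes in red. Grey lines mark the level of 3 counts, 0.548 CPM for replicate 1 and 0.842 CPM for replicate 2, and the lowest gene, Mir144, lies above both at 6.57 and 6.17 CPM.

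The red cell genes had few assigned reads in both libraries. Mir451a had 27.7 CPM in replicate 1 against 32.8 CPM in replicate 2, or 30.3 ± 3.60 CPM (SD, n = 2), from 152 and 117 counts. Mir486 had 21.2 CPM in replicate 1 against 25.3 CPM in replicate 2, or 23.2 ± 2.89 CPM, from 116 and 90 counts. Mir144 had 6.57 CPM in replicate 1 against 6.17 CPM in replicate 2, or 6.37 ± 0.280 CPM, from 36 and 22 counts. All were above the level that a count of 0 allows, 0.548 CPM for replicate 1 and 0.842 CPM for replicate 2.

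Within the red cell group, Mir144 was the lowest in both libraries, and the order of the other two was not resolved, also because Mir486 counts are a lower bound. The ratio of Mir451a to Mir486 counts was 1.31 in replicate 1 (95% interval 1.02 to 1.68) and 1.30 in replicate 2 (0.979 to 1.73), and the second interval includes equal counts. The ratio of Mir451a to its partner Mir144 was 4.22 in replicate 1 (2.92 to 6.25) and 5.32 in replicate 2 (3.35 to 8.81), or 4.77 ± 0.775 (SD, n = 2). In both pairs made from neighbouring hairpins, one gene therefore carried most of the counts, Mir143 on chromosome 18 and Mir451a on chromosome 11. The lowest vessel wall gene, Mir145a, still had 8.37 times the counts of Mir451a in replicate 1 (7.07 to 9.97) and 6.35 times in replicate 2 (5.22 to 7.79).

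The places of the 6 genes in the order of all microRNA genes were close in the 2 libraries. Mir143 ranked 56 and 63, Mir145a 178 and 181, Mir451a 267 and 266, Mir486 287 and 276, and Mir144 352 and 366. Mean levels placed Mir451a between Mir764 at 30.3 ± 4.39 CPM and Mir217 at 29.9 ± 8.10 CPM. By its assigned reads, a lower bound, Mir486 was placed between Mir3064 at 24.4 ± 6.83 CPM and Mir7j at 23.0 ± 0.444 CPM. Mir144 was placed between Mir6982 at 6.39 ± 3.09 CPM and Mir1955 at 6.27 ± 4.23 CPM. None of these neighbours differed from the member beside it by more than its spread. With 2 libraries of 1 group, likeness of pattern across conditions could not be measured, and nearness of level was used in its place.

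**Figure D2:**
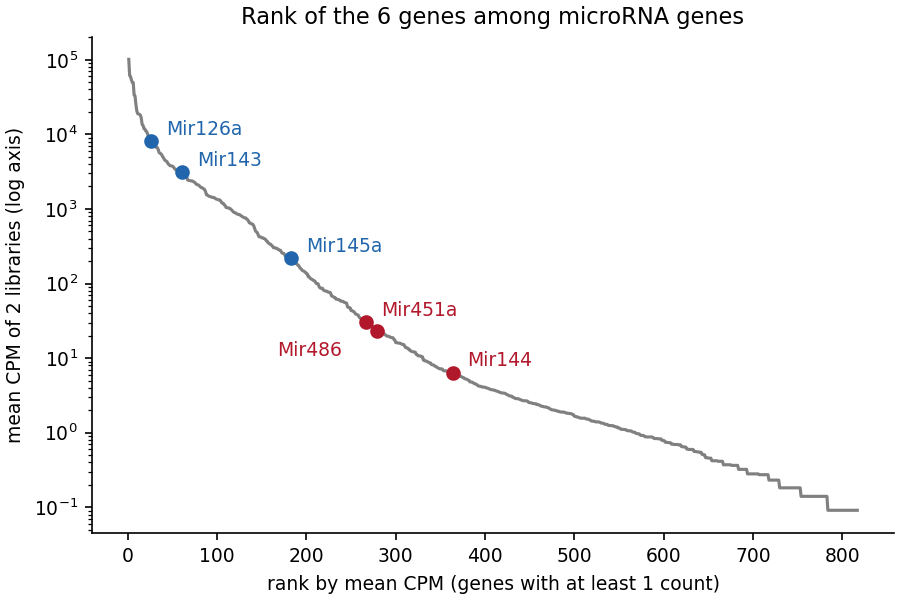
Mean CPM of 2 libraries (log axis) against rank for genes with at least 1 sense count (grey line), with vessel wall genes as blue points and red cell genes as red points. The vessel wall genes sit at ranks 26, 61 and 183 and the red cell genes at ranks 267, 279 and 364. The point of Mir486 shows assigned reads only, a lower bound.

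Of the 6 members, 3 lie opposite another annotated microRNA gene, and their values depend on strand. Mir126b (chromosome 2, 26591363 to 26591420, minus strand) lies wholly within Mir126a, and miR-126b-5p and miR-126a-3p, printed above, are complementary over 19 nt. Mir126b had 0 sense counts in replicate 1 and 1 in replicate 2. Of the 45493 Mir126a reads of replicate 1, 45483 also lay over Mir126b, as did 28449 of 28455 in replicate 2. When strand was ignored, those reads were counted for neither gene, and Mir126a kept 10 and 6 counts. Mir126a alone made up 14.1% and 13.2% of all reads set aside as ambiguous in replicates 1 and 2.

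The same held for the red cell genes that have an opposite partner. Mir451b covers the same 72 nt as Mir451a on the other strand and had 0 sense counts in both libraries, while all 152 and 117 Mir451a reads lay over it and Mir451a kept no count without regard to strand. The listed forms miR-451a and miR-451b do not overlap in position. Mir3107 (chromosome 8, 23142573 to 23142662, minus strand), also named mir-486b, lies wholly within Mir486. It had 6 and 4 sense counts against 116 and 90 of Mir486, or 4.92% and 4.26% of the counts of the pair. Mir486 and Mir3107 share a stretch of 22 nt on their own strands, so a read that lies wholly inside this stretch has a place in each gene. Such reads were not assigned to a gene, so the Mir486 and Mir3107 values cover only reads that reach beyond the stretch, and the level of Mir486 was not determined. The stretch that Mir451a shares with Mir451b has 16 nt, shorter than miR-451a with its 22 nt. Mir143, Mir145a and Mir144 have no opposite gene, their counts were the same with and without regard to strand, and none had a count on the opposite strand.

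**Figure D3:**
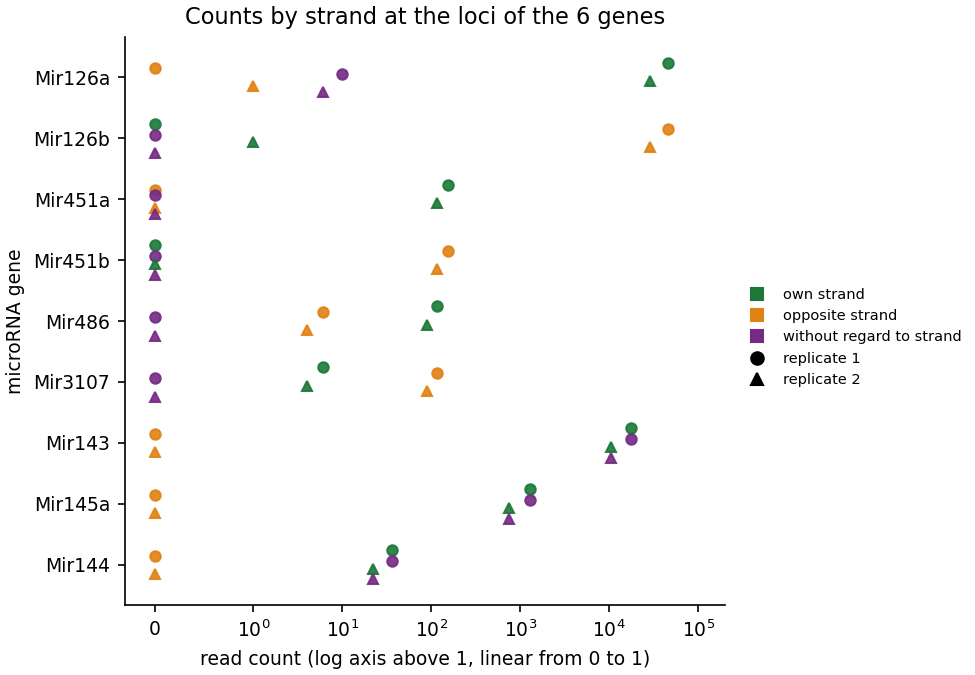
Read counts (log axis above 1, linear from 0 to 1) on a gene's own strand (green), on the opposite strand (orange) and without regard to strand (purple), in replicate 1 (circles) and replicate 2 (triangles), for the 6 genes and the 3 genes opposite to them. Mir126a falls from 45493 and 28455 counts on its own strand to 10 and 6 without regard to strand, while the green and purple points of Mir143, Mir145a and Mir144 coincide in value.

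The 2 libraries differed little in these genes. A two-sided exact binomial test of each gene's 2 counts, with TMM-scaled library sizes and Benjamini-Hochberg adjustment over all 429 detected genes, called 263 genes, or 61.3% of those tested, and 3 of the 6 members. This share of the members is near that of all genes tested. The test compares 2 libraries for counting error and not conditions. The vessel wall genes were called, each slightly lower in replicate 2, a direction called for 32.6% of all genes tested, while 28.7% were called higher and no member was. Mir126a had a log2 ratio of replicate 2 to replicate 1 of -0.12 (95% interval -0.14 to -0.10, exact binomial test, adjusted p = 1.3e-26), Mir143 of -0.19 (-0.23 to -0.16, adjusted p = 1.4e-26) and Mir145a of -0.22 (-0.35 to -0.08, adjusted p = 0.0023). These p-values come with small ratios and high counts, and the intervals do not cover the choice of scaling.

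None of the red cell genes passed the test. Mir451a had a log2 ratio of 0.18 (-0.18 to 0.54, exact binomial test, adjusted p = 0.41), Mir486 of 0.20 (-0.22 to 0.60, adjusted p = 0.44) and Mir144 of -0.14 (-0.99 to 0.65, adjusted p = 0.85). Differences within these intervals were not excluded at their depth. The median absolute log2 ratio was 0.19 over the 6 members and 0.33 over all detected genes, and the median log2 ratio was -0.13 over the members and 0.05 over all detected genes. From 19.3% of detected genes, for Mir126a, to 34.0%, for Mir145a, had a smaller absolute ratio than the member. No member differed 2-fold, a size reached by 11.9% of detected genes. The ratio of vessel wall to red cell counts was higher in replicate 1 (95% interval 189 to 238) than in replicate 2 (152 to 198), and these intervals overlap.

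**Figure D4:**
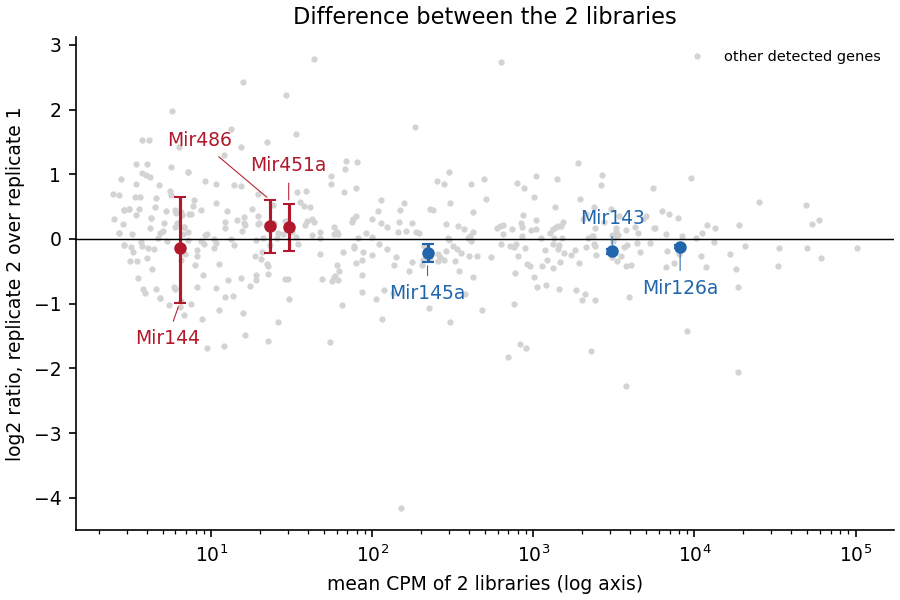
Log2 ratio of replicate 2 over replicate 1 (TMM-scaled) against mean CPM (log axis) for the detected genes (grey), with the vessel wall genes in blue and the red cell genes in red and 95% intervals for counting error. The members lie between -0.22 and 0.20, and the intervals of Mir451a, Mir486 and Mir144 include 0.

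The other vessel microRNAs listed here were read at levels from 6.06 to 5684 CPM, below that of Mir126a. Of 10 further genes known from endothelium, all were detected and their summed level was 14222 CPM in replicate 1 against 17769 CPM in replicate 2. By the same binomial test 5 were higher and 4 lower in replicate 2. Over all genes tested 61.3% were called, and 82.8% of those with at least 100 counts in each library. The most abundant were Mir130a, which promotes vessel growth, at 5684 ± 656 CPM (SD, n = 2), the linked pair Mir221 and Mir222, which restrain the receptor Kit, at 4822 ± 853 and 1893 ± 1078 CPM, and Mir92-1 of the mir-17-92 cluster at 1358 ± 363 CPM. These genes are also expressed in many other cells, Mir126a being the defining one. Mir222 was read at 1130 CPM in replicate 1 against 2655 CPM in replicate 2 and Mir31 at 1069 CPM against 315 CPM, wider gaps than that of Mir126a. Below the lowest vessel wall member, Mir145a, were Mir210 at 141 ± 15.4 CPM, Mir503 at 64.9 ± 29.5 CPM and the Hox cluster genes Mir10b and Mir10a at 15.8 ± 8.08 and 6.06 ± 1.35 CPM.

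The list of smooth muscle and mesenchyme microRNAs, which would also be read from meningeal fibroblasts, was led by a gene that differed widely between the libraries. Of 6 genes 2 were detected, both called lower in replicate 2, as were 32.6% of all genes tested. Among genes with at least 100 counts in each library, as both had, 116 of 267 were called lower. Mir140, of cartilage and mesenchyme, had 3446 CPM in replicate 1 against 1080 CPM in replicate 2, at a log2 ratio of -1.73, while Mir214 stood at 87.2 and 70.4 CPM. Mir199b had 2 and 4 counts, Mir199a-2 had 2 and 2, and Mir199a-1 and Mir145b had none. The Mir199 genes share stretches of 27 to 28 nt with each other, so reads are lost here too and their level was not determined. Striated muscle microRNAs reached a summed 49.3 and 105.8 CPM, mostly from Mir206 at 40.2 and 97.1 CPM. Of these 9 genes 4 had no count. They are the copies of Mir1a and Mir133a, for which reads shared between copies are not assigned, so their level was not determined.

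The list of white blood cell genes held more assigned reads than the red cell genes. Its 5 genes, which microglia also express, were all detected and summed to 1936 CPM in replicate 1 against 1964 CPM in replicate 2. Assigned reads of the red cell members summed to 55.5 and 64.3 CPM. Mir150, of lymphocytes, stood at 858 ± 183 CPM (SD, n = 2) and Mir146 at 950 ± 168 CPM, whereas Mir142, which marks the blood lineage and microglia, stood at 38.6 ± 14.9 CPM and the myeloid Mir223 at 15.2 ± 4.04 CPM. Mir451a, at 30.3 ± 3.60 CPM, lay above Mir223. Its order against Mir142 was not resolved, since their difference in mean level was smaller than the spread of Mir142. Of 5 further microRNAs abundant in red cells, all were detected. Mir92-1, also in the endothelial list, led them, and Mir16-1 stood at 226 ± 107 CPM, Mir25 at 144 ± 11.5 CPM, Mir16-2 at 57.6 ± 14.8 CPM and Mir363 at 8.11 ± 2.73 CPM. By the binomial test 1 of these was higher and 2 were lower in replicate 2, while 61.3% of all genes tested were called. All of these microRNAs are made by many cell types. Mir16-1 and Mir16-2 share 23 nt with each other and Mir92-1 shares 22 nt with Mir92-2, so their counts are lower bounds.

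Summed levels of the choroid plexus and neuronal lists were close in the 2 libraries, while single genes differed. A list of 7 genes covers ependyma and choroid plexus, of which choroid plexus is a highly vascular tissue beside the hippocampus. The 7 genes summed to 6235 CPM in replicate 1 against 6134 CPM in replicate 2, and 5 of them were detected. By the binomial test 1 was higher and 2 were lower in replicate 2, while 61.3% of all genes tested were called. Among the called were Mir204 at 1297 against 1557 CPM and Mir449a at 2135 against 1726 CPM. The part of choroid plexus and ependyma in the vessel wall levels was not tested. The 12 neuronal genes, markers of the labelled tissue, summed to 27073 and 29692 CPM, and 10 were detected, led by Mir132, Mir128-1 at 6638 ± 435 CPM, Mir138-1 at 5024 ± 1029 CPM and Mir137 at 4273 ± 522 CPM (SD, n = 2). Of those 10, 5 were higher and 4 lower in replicate 2. The shares called over all genes were 61.3%, and 82.8% with at least 100 counts in each library. The copies of Mir124a share 32 nt and those of Mir9 at least 26 nt with each other, reads inside such stretches are not assigned, and the copies had from 0.877 to 58.3 CPM, so the neuronal sum is a lower bound. The copies of Mir128 and Mir138 share 23 and 24 nt and carry the same limit. The 3 vessel wall members summed to 11756 and 11138 CPM.

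**Figure D5:**
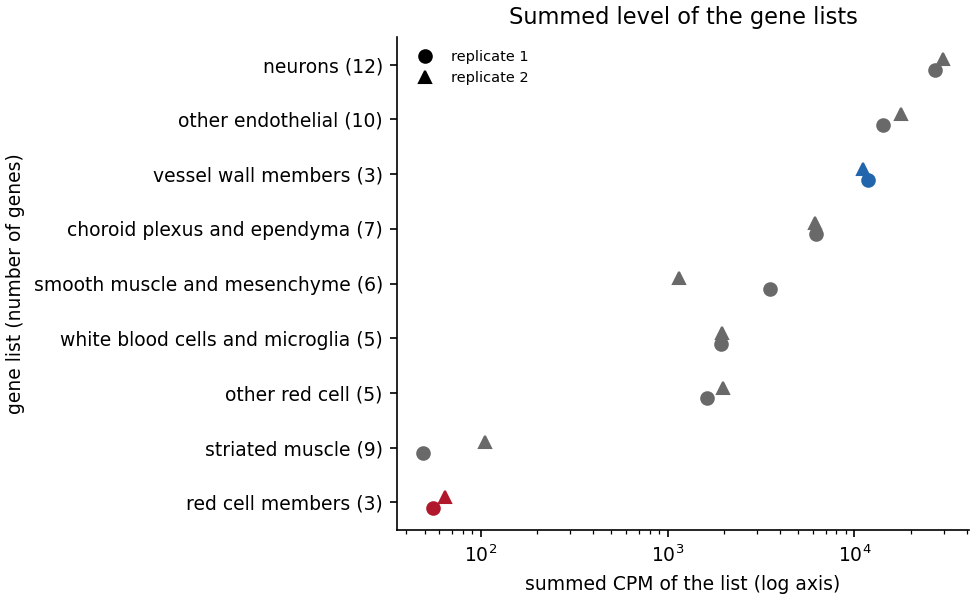
Summed CPM (log axis) of each gene list in replicate 1 (circles) and replicate 2 (triangles), with the number of genes in brackets, the vessel wall members in blue and the red cell members in red. The red cell members, at 55.5 and 64.3 CPM, and the striated muscle list, at 49.3 and 105.8 CPM, lie below the other lists, and the vessel wall members at 11756 and 11138 CPM. Lists with multi-copy genes, and the red cell members through Mir486, show assigned reads only.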

How the data were processed

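MicroRNA-seq libraries came from tissue labelled as a layer of hippocampus, from 2 sets of 3 female mice, 1 library each. The authors deposited raw counts of reads for each gene, made on mm10 with GENCODE M21, per the file notes. Aligner, counter and filters were not given in the sources used here. Of the columns by strand, the one with the larger total over gene rows was taken as sense. The 4 rows of reads without a gene, 63.6% and 62.4% of reads, were left out. All 2202 identifiers matched. A chi-square statistic of 274 per gene separated the libraries from copies of 1 library.

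CPM used sense totals. Exact Clopper-Pearson intervals at 95% and the limit of 3 counts cover counting error only. The two-sided exact binomial test (SciPy 1.17.1) used genes with at least 10 counts in each library. It took TMM factors from edgeR 4.0.16 (0.979 and 1.02) and an adjusted p of 0.05. Its check on simulated data had counting error as the only random spread, so further spread between libraries was not covered. Log2 ratios add 0.5 counts. Shared stretches were searched in annotated transcripts. DESeq2 1.42.0 gave alternative size factors. Alternatives were strand, denominator, scaling, count minimum, a pseudocount of 0.1 CPM and leaving out a replicate. Named genes are the members, genes within 10 kb, neighbours in mean level, and up to 4 leading genes of each list, with further list genes chosen after their values were seen. Members and lists were chosen with earlier results of these data known.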

Additional observations from a re-analysis of the deposited data

Results flagged for a closer look

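Among the 6 members and the genes that overlap them, the columns of opposite-strand counts exceeded the 3 counts that a count of 0 allows at 4 genes. Other genes of the series were not searched for this here. There were 45483 in replicate 1 and 28449 in replicate 2 opposite to Mir126b, 152 and 117 opposite to Mir451b, and 116 and 90 opposite to Mir3107. These are the sense reads of Mir126a, Mir451a and Mir486 over the shared positions, so they are the reads behind the levels of those genes and no separate signal. Opposite to Mir486 there were 6 and 4 counts, the same number as the sense counts of Mir3107. The series has no control samples for comparison.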

How the results depend on the processing

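Counts without regard to strand moved the vessel wall share from 1.14% to 0.351%, the red cell share from 0.00599% to 0.000678%, their ratio from 193 to 518 and the ratio of Mir451a to Mir144 from 4.77 to 0, because reads of Mir126a, Mir451a and Mir486 over a gene on the other strand drop out of such counts. With all reads as denominator the shares were 0.423% and 0.00222%. The ratio of Mir143 to Mir145a stayed at 14.0. With Mir486 left out, chosen after seeing the data, the red cell share was 0.00367% and the ratio of vessel wall to red cell counts 314. Leaving out a replicate gave 173 to 212 for the ratio of vessel wall to red cell counts. With DESeq2 size factors, library totals or other count minimums, 3 members were called, each lower in replicate 2, and 2 without regard to strand, where 3 could be tested. Over all genes the calls lower in replicate 2 were 140 of 263, and 123 of 260 with library totals. Each member's log2 ratio kept its direction and its side of the threshold wherever it was tested, but its size depended on the scaling. With library totals it was -0.06 for Mir126a and -0.13 for Mir143, both outside their intervals with TMM scaling. For Mir145a it was -0.15, inside its interval. Without a count minimum 35.3% of genes tested were called, and with at least 100 counts 82.8%. No paired analysis was possible because the series has 1 group. Depth limits the red cell genes most, with 22 counts for Mir144 in replicate 2.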
